A study of Mus musculus with 24 samples.

Results

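The genes described here are 6 markers of Schwann cells and of the myelin they make, *Mbp*, *Pmp22*, *Prx*, *Mag*, *S100b* and *Sox10*, which were chosen by their symbols among the 18795 genes of the deposited table. All 6 were found, once each, and all 6 were measured in every library. RNA was sequenced from whole soleus (SOL) and gastrocnemius (GAS) muscles of male C57BL/6 mice. In each muscle the groups were old exercised (OE) and old control (OC) mice of 84 weeks, and young exercised (YE) and young control (YC) mice of 9 weeks. The exercised groups ran on a treadmill for 4 weeks and the control groups did not. Each of the 8 groups held 3 libraries, 24 in all, and the numbers of the libraries are those of the labels.

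Schwann cells are the glia of peripheral nerves, and in muscle they wrap the motor and sensory axons that run between the fibers and cap the nerve endings. A myelinating Schwann cell winds its membrane around an axon, and the wraps are compacted by proteins that are rare outside myelin. A muscle fiber does not make myelin, so in a whole muscle such transcripts come largely from the nerve branches that were taken with it. Such bulk values cannot tell fewer cells of a type from less RNA per cell.

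Roles differ among the 6 genes. *Mbp* encodes myelin basic protein, which holds the inner faces of the myelin membrane together, and *Pmp22* encodes a membrane protein of compact myelin whose duplication causes Charcot-Marie-Tooth neuropathy in people. *Prx* encodes periaxin, which ties the outside of the myelin sheath to the basal lamina. *Mag* encodes an adhesion protein of the innermost wrap, facing the axon. *S100b* encodes a calcium-binding protein of Schwann cells that fat cells also make, and *Sox10* encodes the transcription factor that a cell needs to become and remain a Schwann cell. *Pmp22* is also transcribed in fibroblasts.

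In GRCm38.p6, *Pmp22* lies at chr11:63128982-63159547, *Prx* at chr7:27499305-27520041, *Mag* at chr7:30899175-30914922, *S100b* at chr10:76253836-76261319 and *Sox10* at chr15:79154913-79164490. SOX10 and its relatives bind DNA at short sequences close to ACAAAG or ACAATG, and the stretches before the gene starts are shown because the 6 genes varied together between libraries, as described below. For 4 of the genes, 9 windows of 250 bases upstream of a start in RefSeq (GRCm38.p6) were looked at, and *Mbp* was left out. Of these, 2 overlapping windows of *Mag* held a match to ACAAAG or ACAATG on either strand, against 25.2% of the 32851 windows of all genes, and the match is a description of the letters and not of a binding site. The window farthest upstream is printed 5′ to 3′ for each of the 4 genes, with the match in capitals, here ACAAAG read on the strand opposite to *Mag*.
Mag, chr7:30914923-30915172, minus strand: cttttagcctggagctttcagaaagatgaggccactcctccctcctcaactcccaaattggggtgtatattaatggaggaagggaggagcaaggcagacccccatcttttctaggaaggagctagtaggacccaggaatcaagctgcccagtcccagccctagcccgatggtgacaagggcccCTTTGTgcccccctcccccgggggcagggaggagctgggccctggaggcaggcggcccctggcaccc
Prx, chr7:27499074-27499323, plus strand: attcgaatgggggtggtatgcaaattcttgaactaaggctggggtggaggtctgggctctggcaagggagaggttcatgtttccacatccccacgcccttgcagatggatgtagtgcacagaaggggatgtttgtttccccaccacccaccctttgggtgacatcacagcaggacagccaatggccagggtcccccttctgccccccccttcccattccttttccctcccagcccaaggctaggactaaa
Pmp22, chr11:63128732-63128981, plus strand: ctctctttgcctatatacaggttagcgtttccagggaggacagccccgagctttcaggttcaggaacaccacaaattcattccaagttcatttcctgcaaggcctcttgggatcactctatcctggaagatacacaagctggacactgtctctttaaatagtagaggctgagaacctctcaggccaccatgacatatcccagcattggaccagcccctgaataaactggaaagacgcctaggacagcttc
S100b, chr10:76253586-76253835, plus strand: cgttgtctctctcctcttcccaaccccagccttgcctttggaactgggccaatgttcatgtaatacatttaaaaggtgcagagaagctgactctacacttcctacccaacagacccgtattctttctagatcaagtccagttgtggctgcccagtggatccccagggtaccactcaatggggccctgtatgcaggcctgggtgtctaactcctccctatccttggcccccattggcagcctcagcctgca
The match in *Mag* begins 67 bases before that start, at chr7:30914984-30914989. *Pmp22* had 3 further windows and *Mag* 2 further ones. The deposited table gives 1 value a gene, so transcripts from different starts cannot be told apart in what follows.

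The values are FPKM, fragments per kilobase of transcript scaled to the total of the library, which correct for transcript length and so let levels of different genes be compared. Tests used the deposited log2(FPKM + 1) values, quantile normalized, and a fold change on that scale understates the change of genes near or below 1 FPKM. Differences were tested with limma, and a gene is called where its Benjamini-Hochberg adjusted p over all 18795 genes was under 0.05. The p-values rest on the spread between the 3 libraries within groups, each library of a group from its own mouse. In the main fits that spread was pooled over the 4 groups of a muscle, or over 8 groups for both muscles, and shared across genes. Fits of both muscles thus took 1 spread for SOL and GAS, though for *S100b* the SD within groups was 0.12 in SOL and 0.43 in GAS. The share of FPKM in the top 10 genes was 16.1 to 19.4% in SOL and 31.7 to 38.3% in GAS libraries, and 2806 to 3578 genes a library were at 0 FPKM. Markers of slow fibers averaged 11.34 to 11.90 on the log2 scale in SOL and 2.25 to 7.91 in GAS libraries, so the labels of the muscles fitted their fibers, and the GAS libraries differed widely in slow fiber transcripts. The mean of the 6 genes had r = -0.14 with that list over the GAS libraries.

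*Pmp22* was the most abundant of the 6 genes in both muscles, with a mean of 30.9 ± 5.79 FPKM over SOL libraries and 28.3 ± 9.95 FPKM over GAS libraries (SD, n = 12 each). *Mbp*, which lies on chromosome 18, followed with 12.5 ± 2.2 FPKM in SOL, against 13.8 ± 4.42 FPKM in GAS. *Prx* averaged 1.97 ± 0.596 FPKM in SOL, against 1.71 ± 0.549 FPKM in GAS. The remaining 3 were near or below 1 FPKM. *S100b* averaged 0.756 ± 0.186 FPKM in SOL, against 1.12 ± 0.649 FPKM in GAS. *Sox10* averaged 0.652 ± 0.202 FPKM in SOL, against 0.654 ± 0.180 FPKM in GAS. *Mag*, the lowest, averaged 0.251 ± 0.120 FPKM in SOL, against 0.338 ± 0.130 FPKM in GAS. The order was the same in both muscles, and *Pmp22* lay above *Mbp*, *Mbp* above *Prx*, and *Sox10* above *Mag* in 12 of 12 libraries of each. *S100b* and *Sox10* did not separate, since *S100b* was the higher in 10 of 12 SOL and 9 of 12 GAS libraries and their ranges overlapped.

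**Figure D1:**
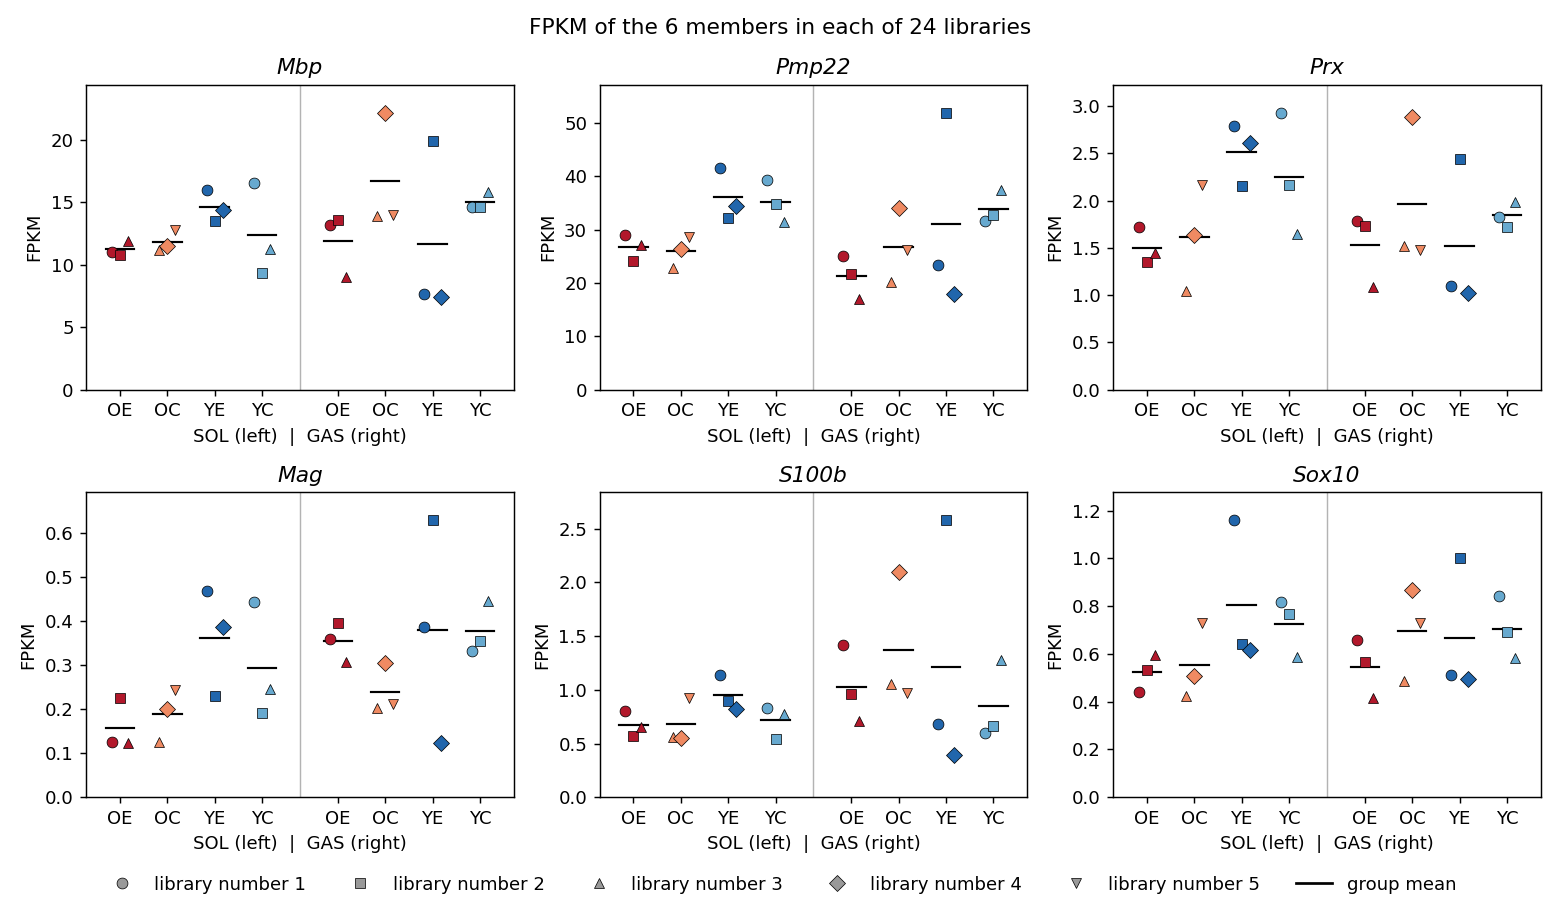
FPKM of each gene (vertical axis, from 0) in every library, with SOL on the left and GAS on the right of each panel, groups ordered OE, OC, YE, YC, point shapes for the library number and a bar for the mean of 3 libraries. GAS YE 2 stands at 51.9 FPKM for *Pmp22* and 2.58 FPKM for *S100b*, while in SOL the 6 old libraries lie below the 6 young ones for *Pmp22*.

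The genes rose and fell together from library to library. In GAS, the library YE 2 held 19.9 FPKM of *Mbp*, 51.9 of *Pmp22*, 2.44 of *Prx*, 0.630 of *Mag*, 2.58 of *S100b* and 1.00 of *Sox10*. The other libraries of its group, YE 1 and YE 4, held 7.63 and 7.45 FPKM of *Mbp*, 23.3 and 18 of *Pmp22*, and 1.1 and 1.02 of *Prx*. They held 0.388 and 0.124 FPKM of *Mag*, 0.678 and 0.392 of *S100b*, and 0.513 and 0.493 of *Sox10*. Mice of the same age and training thus differed by more than the GAS group means did, in all 6 genes. GAS YE 2 ranked first or second among the 12 GAS libraries for each of them.

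A second GAS library stood high in part of the set. GAS OC 4 held 22.2 FPKM of *Mbp*, 2.88 of *Prx* and 2.1 of *S100b*, against 13.9 and 14.0 of *Mbp*, 1.52 and 1.48 of *Prx*, and 1.05 and 0.973 of *S100b* in OC 3 and OC 5. Its *Mag*, at 0.306 FPKM, ranked 9 of 12. GAS OE 3 held the lowest *Pmp22* of the GAS libraries, 17 FPKM, against 25.1 and 21.7 FPKM in OE 1 and OE 2. The YC libraries of GAS lay close together, with 14.6, 14.6 and 15.8 FPKM of *Mbp* and 31.6, 32.8 and 37.4 FPKM of *Pmp22*.

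SOL libraries differed less. The mean log2 value of the 6 genes ran from 1.73 in SOL OC 3 to 2.20 in SOL YE 1, and in GAS from 1.74 in GAS YE 4 to 2.61 in GAS YE 2. All 6 genes were above their SOL mean in YE 1 and YC 1, and all 6 below it in OE 2, OE 3, OC 3 and OC 4. In GAS all 6 were above the mean in YE 2 and all 6 below it in YE 4.

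**Figure D2:**
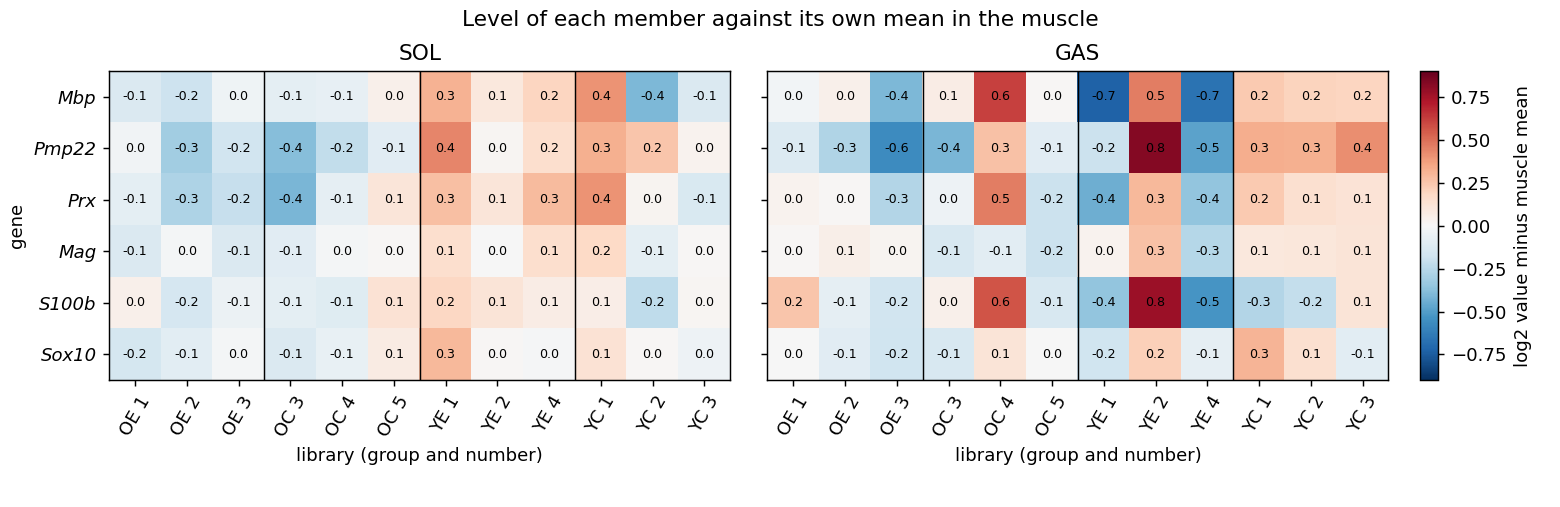
Log2 value of each gene (rows) in each library (columns, groups OE, OC, YE, YC) minus the mean of that gene over the 12 libraries of the muscle, with red above and blue below the mean and the difference written in each cell. The column of GAS YE 2 is red in all 6 rows and that of GAS YE 4 blue in all 6.

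Within groups, *Mbp*, *Pmp22* and *S100b* were more variable in GAS than most genes at their level. The pooled SD within GAS groups was 0.39 for *Mbp*, 0.40 for *Pmp22* and 0.43 for *S100b* on the log2 scale. The median SD of the 1000 genes nearest in level was 0.14 for *Mbp*, 0.14 for *Pmp22* and 0.16 for *S100b*. In SOL the SD was 0.22 for *Mbp* and 0.17 for *Pmp22*, with a median of 0.10 for the genes nearest to either. *Mag*, *S100b* and *Sox10* in SOL varied about as much as other genes of their level, with SDs of 0.09, 0.12 and 0.11 beside medians of 0.09, 0.12 and 0.11.

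The extent of this shared variation was measured by correlating the log2 values of each pair of genes over the 12 libraries of a muscle, 30 pairs in all. In SOL all 15 pairs had a positive Pearson r, with a median of 0.71 and a range of 0.44 to 0.84, and 10 had an adjusted permutation p under 0.05. In GAS all 15 were positive too, with a median of 0.69 and a range of 0.37 to 0.96, and 10 passed by Pearson's r and 7 by Spearman's rho, against 10 by rho in SOL. The 12 libraries of a muscle share the 4 groups, so the group means were also subtracted. The median r was then 0.55 in SOL and 0.80 in GAS.

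The closest pair was *Mbp* and *Prx* in GAS, with r = 0.96 and rho = 0.95 (permutation p = 1e-05 for each, the smallest that 100000 resamples can give, adjusted p = 0.0003). It kept r = 0.94 without the 2 libraries farthest from the median of *Mbp*. In SOL the closest was *Pmp22* and *Prx*, with r = 0.84 (permutation p = 0.00073, adjusted p = 0.0101) and rho = 0.80 (permutation p = 0.00285, adjusted p = 0.0236), and r = 0.77 without the 2 farthest libraries. These are 2 pairs of genes of the compact and outer sheath.

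Other pairs rested on a few libraries. *Mbp* and *Pmp22* in SOL had r = 0.49 (permutation p = 0.109, adjusted p = 0.136) and rho = 0.44 (permutation p = 0.155, adjusted p = 0.179), and r was -0.05 without YC 1 and YE 1. *Mag* and *S100b* in GAS had r = 0.41 (permutation p = 0.188, adjusted p = 0.202) and rho = 0.24 (permutation p = 0.456, adjusted p = 0.472), and r was -0.31 without the 2 farthest libraries. Over all pairs, the median r without the 2 farthest libraries was 0.58 in SOL, where 14 of 15 stayed above 0, and 0.64 in GAS, where 13 of 15 did.

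**Figure D3:**
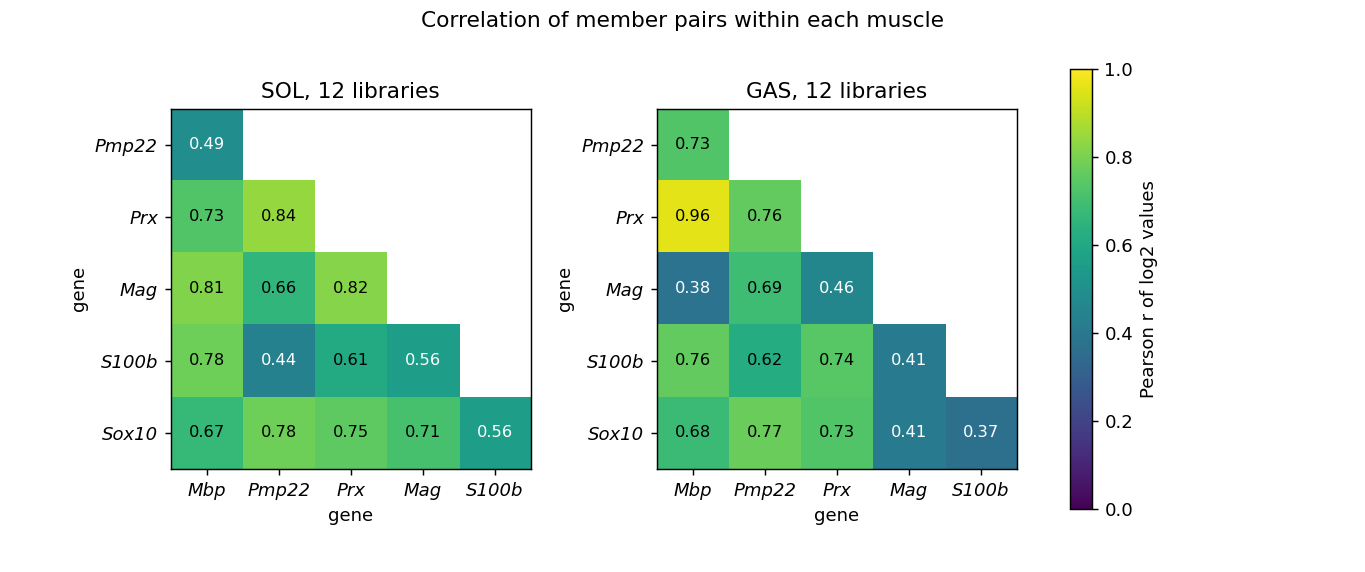
Pearson r of the log2 values of each pair of genes over the 12 SOL libraries (left) and the 12 GAS libraries (right), on a color scale from 0 to 1 with the value in each cell. Every cell is above 0, and *Mbp* with *Prx* in GAS is the highest at 0.96.

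Genes outside the set were ranked by how closely they followed the mean of the 6 over the 24 libraries, with the mean of each muscle and group subtracted. Of the 10815 genes with a mean of at least 1 FPKM, *Mal*, a myelin proteolipid, was among the closest at r = 0.90, and *Itgb4*, the laminin receptor subunit of Schwann and perineurial cells, and *Cand1*, a regulator of ubiquitin ligases, had 0.89 each. *Drp2*, the partner of periaxin at the outer sheath, had 0.87. Further ones were *Mt3* at 0.83, *Zkscan3* at 0.81, *Crlf3* and *Sfrp5* at 0.79 each and *Zfp385b* at 0.77. For *Crlf3* the r was 0.15 in SOL and 0.92 in GAS, and for *Mt3* 0.47 in SOL and 0.89 in GAS, whereas *Drp2* had 0.91 in SOL and 0.86 in GAS.

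Gene lists of other cell types, written from general knowledge, were set beside these values. The mean of 16 further myelin genes followed the mean of the 6 genes with r = 0.92 in SOL and 0.95 in GAS. Markers of the perineurium, the sheath around nerve bundles (*Cldn1*, *Itgb4* and *Slc2a1*), followed it with r = 0.83 in SOL and 0.63 in GAS. The central myelin genes *Mog*, *Mobp* and *Ermn*, which oligodendrocytes express, summed to 0.0527 FPKM at most in any library, so oligodendrocyte markers were at or near 0. Of the melanocyte markers, which share *Sox10* with Schwann cells, *Tyrp1*, *Pmel* and *Mlana* were under 0.5 FPKM in every library. *Dct*, the other one measured, reached 2.25 FPKM in SOL and 0.321 FPKM in GAS, and the 4 markers summed to 1.02 to 2.27 FPKM in old SOL, against 0.490 to 1.09 FPKM in young SOL. Their part in the values of *Sox10* was not tested.

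The mean of 16 regulators and receptors of Schwann cells had r = 0.54 with the mean of the 6 genes in SOL and 0.63 in GAS, and 0.17 in SOL and 0.69 in GAS with group means subtracted. Lists of cells that lie along nerves and vessels followed the set unevenly. With group means subtracted, smooth muscle genes had r = 0.89 with the mean of the 6 genes in GAS and -0.34 in SOL. Adipocyte genes had 0.68 in GAS and -0.13 in SOL, and fibroblast genes -0.17 in GAS and 0.18 in SOL. GAS YE 2, high in the 6 genes, was also high in smooth muscle genes, at 3.58 against 2.96 in YE 1 and 3.07 in YE 4. For adipocyte genes it had 5.38 against 4.16 and 4.09, and r without that library was not computed. The part of these cells in the values of the 6 genes was not tested. Between SOL and GAS libraries of the same group and number the mean of the 6 genes had r = -0.15 over 12 pairs, and -0.27 with group means subtracted, a description without a test.

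The effect of age was asked first in SOL. *Pmp22* was lower in old mice, and it was the only one of the 6 genes called when the 6 old libraries were compared with the 6 young ones. It held 28.9, 24.1 and 27.1 FPKM in OE libraries and 22.8, 26.3 and 28.6 FPKM in OC libraries, against 41.5, 32.1 and 34.5 FPKM in YE libraries and 39.3, 34.7 and 31.4 FPKM in YC libraries. All 6 old libraries lay below all 6 young ones, which was so for 3.06% of all genes, and for no other of the 6 genes. *Pmp22* fell by 0.40 on the log2 scale (SE 0.09, adjusted p = 0.021 by limma, 6 against 6), where 12.3% of all genes were called in either direction and 4.91% were called lower. Without SOL OC 3 the adjusted p was 0.0511.

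The other 5 genes had lower means in old SOL but did not pass. *Prx* held 1.72, 1.35 and 1.44 FPKM in OE libraries and 1.04, 1.64 and 2.16 FPKM in OC libraries, against 2.79, 2.15 and 2.61 FPKM in YE libraries and 2.93, 2.16 and 1.65 FPKM in YC libraries. The old and young libraries of *Prx* overlapped, and the difference was -0.32 on the log2 scale (SE 0.11, adjusted p = 0.102). *Mag* differed by -0.13 (SE 0.05, adjusted p = 0.117), *Sox10* by -0.13 (SE 0.06, adjusted p = 0.203), *Mbp* by -0.16 (SE 0.12, adjusted p = 0.460) and *S100b* by -0.07 (SE 0.07, adjusted p = 0.545). The direction was thus common to the 6, with a median of -0.14 beside 0.00 over all genes, and 3 of 6 were lower at an unadjusted p under 0.05, as were 12.1% of all genes. The 6 genes varied together over these libraries, with a median pair r of 0.55 in SOL even with group means subtracted. Their common direction is therefore not 6 separate observations. Without quantile normalization 822 genes were called higher and 1270 lower in old SOL, against 1394 higher and 923 lower with it. In SOL OC/YC that split was 307 higher and 349 lower without it, against 543 higher and 277 lower with it.

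Within each training state the same difference was less certain. In SOL OC/YC no member was called by limma, 1 of 6 had an unadjusted p under 0.05, none was called by an equal-variance test of each gene, and 4.36% of all genes were called. *Pmp22* was the one, at -0.43 (SE 0.13, adjusted p = 0.0896), and 0.0489 when genes under 1 FPKM were left out before the test. In SOL OE/YE no member was called, with 3 of 6 at an unadjusted p under 0.05, none by the equal-variance test, and 2.78% of all genes called. Each of the 6 differences was below 0 there, and 4 of 6 were in SOL OC/YC.

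**Figure D4:**
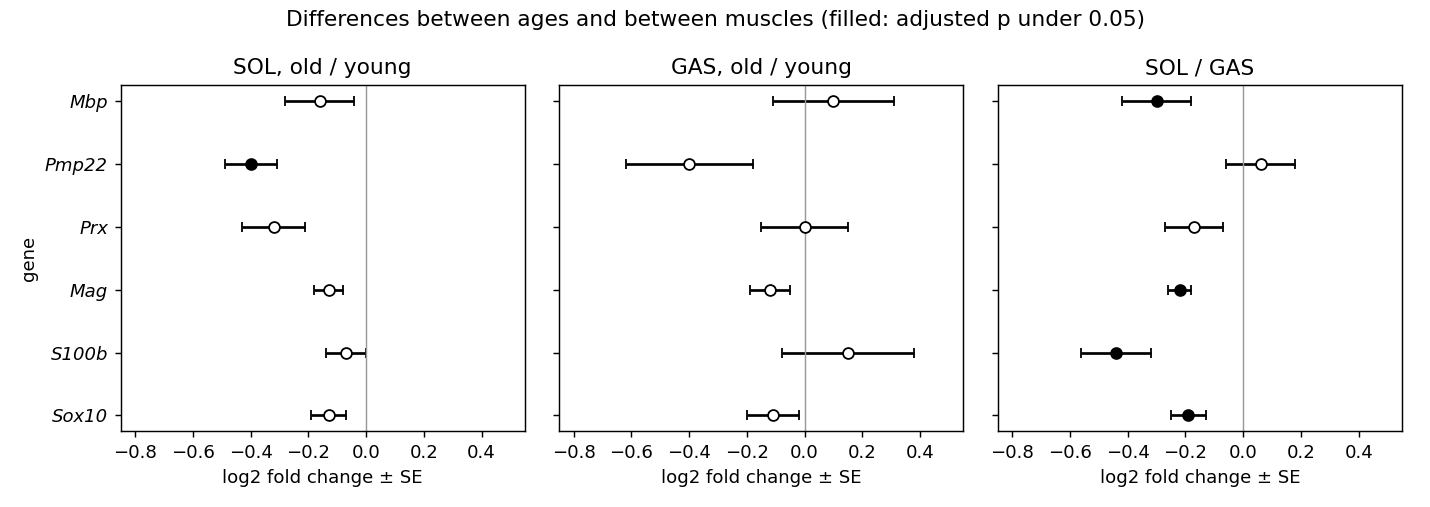
Log2 fold change (horizontal axis) with its standard error for each gene in old against young SOL, old against young GAS, and SOL against GAS, with filled points where the adjusted p was under 0.05. In old SOL *Pmp22* is the only filled point, at -0.40, and in GAS none is filled.

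In GAS no difference with age was called. *Pmp22* held 25.1, 21.7 and 17 FPKM in OE libraries and 20.2, 34.0 and 26.1 FPKM in OC libraries, against 23.3, 51.9 and 18 FPKM in YE libraries and 31.6, 32.8 and 37.4 FPKM in YC libraries. Old and young GAS libraries overlapped, and the difference of -0.40 was as large as in SOL but less certain (SE 0.22, adjusted p = 0.438). Over the 6 genes, 3 differences were above 0 and 3 below, none was called by limma or by the equal-variance test, none had an unadjusted p under 0.05, and 1.6% of all genes were called. Of all genes, 267 were called higher and 73 lower in old GAS without quantile normalization, against 170 higher and 131 lower with it. In GAS OC/YC 0.0426% of all genes were called and in GAS OE/YE 0.165%, and no member in either, with 1 of 6 and 0 of 6 at an unadjusted p under 0.05 and none by the equal-variance test. That 1 was *Mag*, at -0.25 (SE 0.10, adjusted p = 0.428 by limma).

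The age effects of the muscles were also compared directly. No member differed between SOL and GAS in its age effect by limma, none had an unadjusted p under 0.05, none passed the equal-variance test, and 1.03% of all genes were called. For *Pmp22* the difference between the age effects was 0.00 with an SE of 0.24 (adjusted p = 1), which leaves differences of that size in either direction undetected. That *Pmp22* passed in SOL and not in GAS does not show that the muscles differed.

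Further genes of myelin and of Schwann cells were counted from the lists. Of 16 myelin structure and lipid genes, the median difference with age was -0.09 in SOL and -0.08 in GAS beside 0.00 over all genes, and 13 of 16 were below 0 in SOL and 12 of 16 in GAS. None was called in GAS by limma or by the equal-variance test, with 1 higher and 1 lower at an unadjusted p under 0.05. *Cnp*, an enzyme of uncompacted myelin and among the most abundant of the list, differed by -0.11 in old SOL (SE 0.06, adjusted p = 0.247).

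Of 16 regulators and receptors of Schwann cells, 9 were under 0.5 FPKM in every library. In old SOL 1 of the 16 was called lower, a share near the 4.91% of all genes called lower there. The gene was *Egr2*, the transcription factor that switches on myelin genes, at 0.263 to 0.518 FPKM (median 0.375) in old SOL against 0.291 to 0.976 FPKM (median 0.665) in young SOL. The ranges overlapped, and the call (-0.16, SE 0.04, adjusted p = 0.0403) was kept in 3 of 12 fits that left out 1 library. The call of *Egr2* was also lost with the equal-variance test (adjusted p = 0.0609). By limma it was lost with a pseudocount of 0.1 (adjusted p = 0.0734), without quantile normalization (0.0514) and with the library number as a block (0.228). *Erbb3*, the receptor for the axonal signal neuregulin, differed by 0.06 (SE 0.05, adjusted p = 0.463) and *Scn7a*, a sodium channel of non-myelinating Schwann cells, by -0.12 (SE 0.09, adjusted p = 0.472). Of the 3 perineurial genes, *Cldn1* (-0.27, SE 0.06, adjusted p = 0.0181) and *Itgb4* (-0.25, SE 0.07, adjusted p = 0.0393) were called lower in old SOL, and *Slc2a1* differed by 0.14 (SE 0.09, adjusted p = 0.359). The call of *Itgb4* was kept in 1 of 12 fits that left out 1 library.

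Fibroblast genes moved with *Pmp22* in SOL. Of 6 fibroblast markers, 4 were called lower in old SOL, and their summed level was 245 to 331 FPKM in old against 405 to 660 FPKM in young SOL libraries. *Col1a1*, a chain of collagen I, fell by 2.23 on the log2 scale (SE 0.31, adjusted p = 0.00332), *Col1a2* by 1.82 (SE 0.30, adjusted p = 0.00613), *Col3a1* by 1.67 (SE 0.23, adjusted p = 0.00325) and *Pdgfra*, a receptor of fibroblasts, by 0.28 (SE 0.07, adjusted p = 0.0384). The call of *Pdgfra* was kept in 2 of 12 fits that left out 1 library, and those of the 3 collagens in all 12. *Dcn* differed by -0.21 (SE 0.15, adjusted p = 0.422). Over the 12 SOL libraries the mean of the fibroblast list had r = 0.87 with *Pmp22*, 0.60 with *Prx*, 0.56 with *Sox10*, 0.50 with *Mag*, 0.20 with *S100b*, 0.15 with *Mbp* and 0.59 with the mean of the 6. Once group means were subtracted it had 0.55 with *Pmp22* and 0.18 with the mean of the 6. The list of 16 myelin genes had r = 0.82 with *Pmp22* and 0.60 with group means subtracted. In old GAS 2 of the 6 fibroblast genes were called lower, *Col1a1* (-1.41, SE 0.25, adjusted p = 0.0311) and *Col1a2* (-1.15, SE 0.23, adjusted p = 0.0483), kept in 2 and 0 of 12 such fits, and there the fibroblast list had r = 0.34 with *Pmp22*. Lower levels in old SOL were not particular to fibroblasts, whose list had a median difference of -0.97. The adipocyte list had -1.09, the smooth muscle list -0.26 and the endothelial list -0.21, while the macrophage list had -0.04 and the slow fiber list 0.08. The part of fibroblasts or of these other cells in the lower *Pmp22* of old SOL was not tested.

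**Figure D5:**
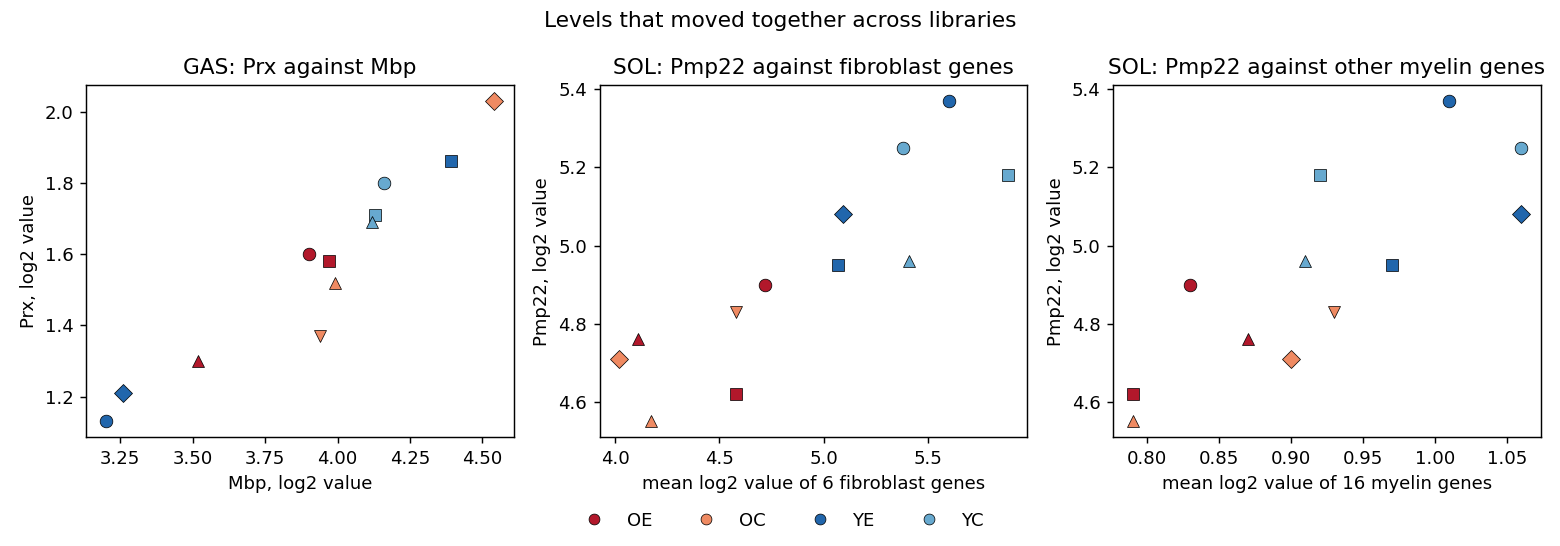
Log2 values in single libraries, colored by group: *Prx* against *Mbp* in GAS (left), and *Pmp22* in SOL against the mean of 6 fibroblast genes (middle) and against the mean of 16 myelin genes (right). *Pmp22* follows both lists, with r = 0.87 and r = 0.82, and the 6 old libraries lie below the 6 young ones on its axis.

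No difference with training was called in any of the 6 genes. In SOL YE/YC 0% of all genes were called, in SOL OE/OC 0.00532%, and in GAS YE/YC and GAS OE/OC 0.016% each. No member was called in any of the 4 comparisons by limma or by the equal-variance test, and none had an unadjusted p under 0.05 by limma. The largest difference was that of *Mbp* in GAS YE/YC, with 7.63, 19.9 and 7.45 FPKM in YE libraries against 14.6, 14.6 and 15.8 FPKM in YC libraries. YE libraries lay on both sides of the YC libraries, and the difference was -0.52 (SE 0.30, adjusted p = 1). It was -0.91 without GAS YE 2. In SOL, *Mbp* held 11, 10.8 and 11.9 FPKM in OE against 11.2, 11.5 and 12.8 FPKM in OC libraries, and 16, 13.5 and 14.4 FPKM in YE against 16.6, 9.34 and 11.3 FPKM in YC libraries. All 6 differences were above 0 in SOL YE/YC and 5 of 6 were below 0 in SOL OE/OC.

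Between the muscles, 4 of the 6 genes were called lower in SOL over all 24 libraries, where 57% of all genes were called and 28.5% were called lower in SOL. *S100b* was lower by 0.44 on the log2 scale (log2 fold change -0.44, SE 0.12, adjusted p = 0.00443), at 0.540 to 1.14 FPKM (median 0.790) in SOL and 0.392 to 2.58 FPKM (median 0.967) in GAS libraries. *Mag* had -0.22 (SE 0.04, adjusted p = 0.000351), with 0.124 to 0.470 FPKM (median 0.228) in SOL and 0.124 to 0.630 FPKM (median 0.345) in GAS. *Sox10* had -0.19 (SE 0.06, adjusted p = 0.00562) and *Mbp* -0.30 (SE 0.12, adjusted p = 0.0465). *Prx*, at -0.17 (SE 0.10, adjusted p = 0.143), and *Pmp22*, at 0.06 (SE 0.12, adjusted p = 0.671), were not called. The ranges of SOL and GAS overlapped in all 6.

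These calls depended on the quantile normalization. Without it no member was called between the muscles, and the differences were -0.22 for *S100b*, -0.10 for *Mag*, -0.09 for *Mbp* and 0.13 for *Prx*. That scaling moved the median of all genes by 0.07 over all groups and by 0.11 in SOL YC/GAS YC, and it called 8707 genes higher and 2848 lower in SOL, against 5350 higher and 5360 lower with quantile normalization. The FPKM of *Sox10*, 0.652 in SOL and 0.654 in GAS, shows the same. The methods give 3 mice a group, so SOL and GAS libraries of a group share mice, while the fit took the 24 libraries as independent. With the library number taken as a mouse and used as a block *Mbp* was not called (adjusted p = 0.0742). The call of *Mbp* was kept in 6 of 24 fits that left out 1 library, and those of *Mag*, *S100b* and *Sox10* in all 24.

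Group by group, the only calls were those of *Mag*, for the OE libraries and for the YC libraries of the muscles. Its difference was -0.34 in SOL OE/GAS OE (SE 0.09, adjusted p = 0.0051) and -0.29 in SOL YC/GAS YC (SE 0.09, adjusted p = 0.0149), the second with an adjusted p of 0.0838 without SOL YC 2. *Mag* held 0.126, 0.225 and 0.124 FPKM in SOL OE against 0.360, 0.397 and 0.308 FPKM in GAS OE libraries, which did not overlap, and 0.443, 0.192 and 0.245 FPKM in SOL YC against 0.333, 0.356 and 0.446 FPKM in GAS YC libraries, which did. Of all genes, 38.3% were called in SOL YC/GAS YC, 34.2% in SOL YE/GAS YE, 37.4% in SOL OC/GAS OC and 38.7% in SOL OE/GAS OE. In SOL YE/GAS YE and SOL OC/GAS OC no member was called by limma or by the equal-variance test, with 0 of 6 and 2 of 6 at an unadjusted p under 0.05.

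Other myelin genes were compared between the muscles as well. Of the 16 in the list, 8 were called lower and 2 higher in SOL, with a median of -0.21 beside 0.00 over all genes. Among all genes 57% were called in either direction and 28.5% were called lower in SOL. Without quantile normalization 9 of 16 were called in either direction, against 61.5% of all genes. In either direction the list was thus called about as often as genes in general. *Cnp* averaged 3.34 ± 0.445 FPKM in SOL, against 4.66 ± 0.488 FPKM in GAS (SD, n = 12 each), with a log2 fold change of -0.70 (SE 0.04, adjusted p = 5.51e-11). *Pllp*, plasmolipin, had -0.32 (SE 0.05, adjusted p = 5.58e-06) and *Gjb1*, the gap junction protein of myelin, -0.19 (SE 0.03, adjusted p = 7.15e-05). *Drp2* went the other way, with 2.55 ± 0.480 FPKM in SOL, against 1.1 ± 0.354 FPKM in GAS (log2 fold change 0.47, SE 0.07, adjusted p = 1.64e-05). Without quantile normalization *Cnp* had -0.39, *Pllp* -0.16, *Gjb1* -0.12 and *Drp2* 0.76, and each kept its call.

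Of the 16 regulators and receptors, 2 were called higher and 3 lower in SOL, a smaller share than the 57% of all genes called. That share depended on level, since 76.6% were called among genes with at least 1 FPKM in 3 libraries. Of the 16, 9 were under 0.5 FPKM in every library, so the smaller share is not read as a trait of the list. *Erbb3* stood out, with 3.77 ± 0.359 FPKM in SOL, against 0.877 ± 0.289 FPKM in GAS (log2 fold change 1.08, SE 0.06, adjusted p = 1.79e-11), and its ranges did not overlap. *L1cam*, an adhesion protein of axons and non-myelinating Schwann cells, was called higher at 0.07 (SE 0.03, adjusted p = 0.0469), in 10 of 24 fits that left out 1 library. *Foxd3* (-0.26, SE 0.05, adjusted p = 0.000183), *Gap43* (-0.11, SE 0.04, adjusted p = 0.0112) and *Ngfr*, the low-affinity neurotrophin receptor (-0.08, SE 0.02, adjusted p = 0.00217) were called lower, all below 1 FPKM. *Scn7a* differed by 0.09 (SE 0.08, adjusted p = 0.394). Without quantile normalization *Ngfr* turned to 0.01, *Gap43* lost its call (-0.06, adjusted p = 0.176) and *Scn7a* gained one (0.38, adjusted p = 0.00179), while *Erbb3*, at 1.36, kept its direction.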

How the data were processed

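Whole muscles were sequenced as paired-end poly-A libraries, 3 a group and 24 in all. The authors mapped reads to mm10 (HISAT2 2.1.0) and estimated levels of genes by StringTie 1.3.4d. The deposited FPKM are the authors' values for 18795 genes. The deposited log2 values were made by the authors from FPKM plus 1 with quantile normalization of all libraries, and recomputing them differed by at most 5e-09. Columns of the authors' own comparisons hold group means and SDs, folds between SOL and GAS, test statistics, p-values and adjusted p-values, and none was used. Read counts were not used here, and low FPKM showed no whole-read steps, so the number of reads behind a value is unknown and no interval or floor from counts is given.

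Groups came from the labels. limma 3.58.1 in R 4.3.3 (trend, two-sided, no block) compared ages and training within the 12 libraries of a muscle, and SOL with GAS over 24, with Benjamini-Hochberg adjustment over all genes. Old/young is the mean of OE/YE and OC/YC. Correlations within a muscle used two-sided permutation tests with 100000 resamples, adjusted over 30 pairs. Alternatives were an equal-variance test, only the libraries compared, a pseudocount of 0.1, at least 1 FPKM in 3 libraries, no quantile normalization, each library left out, and a replicate block. SOL and GAS libraries of a group come from the same 3 mice by the methods, but the labels do not tie a number to a mouse, so the block is an alternative alone and the SOL/GAS fit takes libraries as independent. In fits of both muscles the block was the number within a group, taken as a mouse. Within a muscle it was the library number alone, which joins different mice of different groups and is no block of mice. Scripts were tested on simulated data.

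The members and the 13 gene lists (103 of 106 genes measured) were chosen with earlier results of these data known. Named were all members, the called genes of a list given a count (the 4 with the smallest adjusted p where over 6), its 2 genes with the highest mean FPKM, and the 10 genes most like the mean of the members. Of the genes this rule names, 1 is not reported here. Positions and upstream sequences come from RefSeq GRCm38.p6 without the 50 bases after each start.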

Additional observations from a re-analysis of the deposited data

Results flagged for a closer look

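*Ngfr*, the low-affinity neurotrophin receptor that Schwann cells re-express when they lose their axon, differed between SOL and GAS in its age effect, which is why it is given here. No other gene among the members and the lists was called in that comparison, where 1.03% of all genes were called. It ran from 0.102 to 0.237 FPKM (median 0.174) in old SOL against 0.237 to 0.325 FPKM (median 0.269) in young SOL, and from 0.133 to 0.429 FPKM (median 0.261) in old GAS against 0.0814 to 0.213 FPKM (median 0.161) in young GAS. The age effect in SOL minus that in GAS was -0.21 on the log2 scale (SE 0.04, adjusted p = 0.0145 by limma over all genes, 24 libraries), and it was called in 24 of 24 fits that left out 1 library but not with the replicate number as a block (adjusted p = 0.0606). Neither muscle passed alone, with -0.09 in SOL (adjusted p = 0.0585) and 0.12 in GAS (adjusted p = 0.0745).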

How the results depend on the processing

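Under the alternatives, 226 of 245 counts of called members stayed the same or close to it. Close counts were taken as the same, such as 3 by the equal-variance test against 4 by limma in SOL/GAS. Most comparisons called no member in the main fit, so a count of 0 often stayed 0. Without quantile normalization no member (0) was called in SOL/GAS, SOL YC/GAS YC or SOL OE/GAS OE, and 2 were in SOL/GAS with the filter on low FPKM, which leaves 4 members. That filter gave 1 in SOL OC/YC and SOL OC/GAS OC and 0 in SOL YC/GAS YC and SOL OE/GAS OE. The equal-variance test gave 0 in SOL YC/GAS YC, the pseudocount 1 in SOL OC/GAS OC, and the fit of only the libraries compared 2 in SOL OE/GAS OE. With the library number as a block within SOL no member (0) was called in SOL old/young, where *Pmp22* had an adjusted p of 0.0786. That block joins different mice of different groups and is partly tied to the groups, so the lost call says nothing about shared mice. Without OC 3 and with no block it was 0.0511. Leaving out 1 library gave 0 to 1 members in SOL old/young (0 without OC 3), 0 to 2 in SOL YC/GAS YC (0 without SOL YC 2, 2 without SOL YC 1 or GAS YC 3), 0 to 2 in SOL YE/GAS YE (2 without GAS YE 2, 1 without GAS YE 4) and 0 to 1 in SOL OC/GAS OC (1 without GAS OC 5). *Prx* reversed to 0.13 and *Ngfr* to 0.01 in SOL/GAS without quantile normalization, and *Pmp22* to -0.0023 without GAS YE 4 (0.16 at most). The median pair r in SOL, 0.71, was 0.55 with group means subtracted, 0.58 without the 2 farthest libraries and 0.62 to 0.84 over the lowest and highest r of each pair when 1 library was left out. Counts over all genes fell with the library number as a block within a muscle, to 158 from 2317 in SOL old/young. In SOL OC/YC, SOL OE/YE and GAS old/young they fell to 0 from 820, 523 and 301. With the equal-variance test they fell to 1 from 820 in SOL OC/YC and to 0 from 523 in SOL OE/YE. GAS OE/YE called 1 gene by the equal-variance test or in only the libraries compared, 48 with the filter and 0 with the block, against 31. GAS OC/YC called 1 by the equal-variance test, 4 in only the libraries compared, 18 with the pseudocount, 15 with the filter, 26 without quantile normalization and 0 with the block, against 8. GAS old/young called 183 by the equal-variance test, SOL OC/YC 8 and SOL OE/YE 6 in only the libraries compared, SOL OE/YE 298 without quantile normalization, and SOL OE/GAS OE 3983 by the equal-variance test against 7271. The difference of the age effects called 88 with the filter and 118 with the block, against 193. Leaving out 1 library gave 292 to 837 in SOL OC/YC, 117 to 418 in SOL OE/YE, 1539 to 2296 in SOL old/young, 101 to 367 in GAS old/young, 9 to 55 in GAS OC/YC, 10 to 58 in GAS OE/YE and 128 to 300 for the difference of the age effects. With training it gave 4 to 20 in SOL YE/YC, 2 to 11 in SOL OE/OC, 4 to 15 in GAS YE/YC and 5 to 13 in GAS OE/OC, where all libraries gave 0, 1, 3 and 3. In paired SOL and GAS libraries of one number, deviations from group means correlated at -0.03 to 0.35 over genes, above 0.1 in 6 of 12, and the own number was the highest in 7 of 12, a hint from the data only. With that number as the block, *Mbp* in SOL/GAS had an adjusted p of 0.0742 and the age difference of *Ngfr* 0.0606. The causes were not tested.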

Other observations

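Genes of the muscle side of the nerve contact were counted from a further list. Of 16 denervation and neuromuscular junction genes, 5 were called higher in old SOL and 2 in old GAS, with median differences of 0.21 in SOL and 0.26 in GAS beside 0.00 over all genes. Of all genes, 12.3% were called in old against young SOL (1394 higher) and 1.6% in old against young GAS (170 higher). The 5 in SOL were the acetylcholine receptor subunits *Chrna1* (0.48, SE 0.12, adjusted p = 0.037), *Chrnb1* (0.22, SE 0.06, adjusted p = 0.0457) and *Chrnd* (0.48, SE 0.07, adjusted p = 0.00402), the stress gene *Gadd45a* (0.72, SE 0.09, adjusted p = 0.0026) and *Lrp4*, the agrin receptor of the fiber (0.26, SE 0.06, adjusted p = 0.0292). The 2 in GAS were *Chrna1* (0.69, SE 0.12, adjusted p = 0.031) and *Lrp4* (0.34, SE 0.06, adjusted p = 0.0356). Leaving out 1 library gave 2 to 4 calls in SOL and 0 to 2 in GAS, and of the 5 genes *Chrnd* and *Gadd45a* kept their calls in 12 of 12 such fits and the others in 2 of 12. Without quantile normalization *Chrna1* (limma adjusted p = 0.056), *Chrnb1* (0.0771) and *Lrp4* (0.106) lost their calls in SOL, and *Lrp4* (0.079) in GAS. With the equal-variance test *Chrna1* (0.0589) and *Chrnb1* (0.0656) lost theirs in SOL, and *Chrna1* (0.0515) in GAS. With the block *Chrnd* lost its call in SOL (limma adjusted p = 0.0731). *Rapsn*, an anchor of the receptor and with *Chrnb1* the most abundant of the list, was not called. The mean of this list had r = -0.55 with the mean of the 6 Schwann cell and myelin genes over 12 SOL libraries and 0.58 with group means subtracted, and -0.11 and -0.07 in GAS.

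The remaining lists were counted in old against young SOL, where 12.3% of all genes were called and 4.91% were called lower. Called lower were 2 of 5 endothelial genes, *Emcn* (-0.48, SE 0.09, adjusted p = 0.0114) and *Tek* (-0.21, SE 0.05, adjusted p = 0.0247), and 1 of 8 adipocyte genes, the fat cell hormone *Retn* (-1.77, SE 0.41, adjusted p = 0.0245). Called higher was 1 of 4 melanocyte genes, *Dct* (0.59, SE 0.12, adjusted p = 0.0156). Median differences were -0.21 for the endothelial and -1.09 for the adipocyte list and the adipocyte genes summed to 508 to 639 FPKM in old against 644 to 1162 FPKM in young SOL libraries. No call was made in lists of 6 macrophage, 4 smooth muscle, 8 slow fiber, 8 fast fiber and 3 oligodendrocyte genes by limma (0 in each), with 2 smooth muscle genes lower and 1 slow fiber gene higher at an unadjusted p under 0.05.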
